A study of Mus musculus with 4 samples.

Results

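The genes described here are 9 retinoid genes, namely the binding protein genes Crabp1, Crabp2 and Rbp4, the synthesis enzyme genes Aldh1a1, Aldh1a2 and Aldh1a3, the degradation enzyme gene Cyp26b1 and the receptor genes Rara and Rarb. They were chosen by symbol, and all 9 have a row among the 23337 gene symbols of each count table. RNA was sequenced from sorted cells that expressed the fluorescent protein Tomato, taken from regenerated olfactory epithelium of 4 mice of mixed strain background with 1 mouse per sample. Every mouse had received intraperitoneal injections of methimazole, which damages the olfactory epithelium, at 50 mg/kg each and had recovered for 4 weeks. Mutant samples were Lmnb1-/- cells and control samples were Lmnb1+/- cells, so the controls also lacked 1 functional copy of Lmnb1, the gene of the nuclear lamina protein lamin B1.

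Cre recombinase was driven by the keratin 5 promoter, which is active in horizontal basal cells, a stem cell of this tissue. Cre deleted a floxed Lmnb1 exon and switched on the Tomato reporter, so that Tomato-positive cells were basal cells and any cell type derived from them. The mutant epithelium was a mosaic, and only its Tomato-positive cells were sequenced. Control 1 and mutant 1 formed experimental group 1, and control 2 and mutant 2 formed experimental group 2. Within a group the mice shared parents, age, sex and handling, whereas the groups differed in all of these. The paper describes its mice as adult, and the exact ages and sexes are not given in the sources used here. Genotype effects are given as mutant over control and group effects as experimental group 2 over 1. A run of 4 values without sample names stands in the order control 1, mutant 1, control 2 and mutant 2.

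Retinoic acid is made from vitamin A in a pair of oxidation steps. Alcohol and retinol dehydrogenases turn retinol into retinal, and the retinaldehyde dehydrogenases of the ALDH1A family turn retinal into retinoic acid, which CYP26 enzymes break down. RBP4 carries retinol in blood, and the CRABP proteins carry retinoic acid inside the cell. Retinoic acid binds RAR receptors, which pair with RXR receptors on DNA elements made of repeated half-sites, and the pathway is known for its role in the development and renewal of the olfactory epithelium.

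The promoter of Rarb carries the best known of these elements, and its sequence is shown because Rarb is itself a textbook target of the receptors it belongs to. Of the 9 genes, 7 had a promoter in the RefSeq table of GRCm38.p6, with Crabp2 and Aldh1a3 having no entry. The promoters cover 250 bases before a transcription start and 50 bases after it, and 6 motifs were searched on both strands. These were repeats of GTTCA or of GGTCA as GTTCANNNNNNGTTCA and GGTCANNNNNNGGTCA (spacing DR5), GTTCANNNGTTCA and GGTCANNNGGTCA (DR2), and GTTCANNGTTCA and GGTCANNGGTCA (DR1). Only Rarb among the 7 matched any motif. Its match to the first motif lies 52 to 37 bases before the start in the table and is set in capitals below. That start lies inside the gene as annotated, and is not its outermost one. Of 32851 mouse promoters in the table, 25 (0.0761%) held that motif. The other 5 motifs were in 0.0548% to 0.225% of promoters. Among the 49 of 62 other pathway genes with a promoter entry, Cyp26a1, a retinoic acid-degrading enzyme and another textbook target, held the same motif on the opposite strand, 32 to 17 bases before its start. Bco1, a carotene-cleaving enzyme that makes retinal, held a DR1 match (GGTCANNGGTCA) 56 to 45 bases before its start, and no other of the 49 matched. These matches describe the reference sequence and not binding in these cells. The stretches lie at chr14:16575477-16575568 on the minus strand for Rarb and at chr19:37697736-37697807 on the plus strand for Cyp26a1, and are written 5′ to 3′ on the strand of the gene.
Rarb: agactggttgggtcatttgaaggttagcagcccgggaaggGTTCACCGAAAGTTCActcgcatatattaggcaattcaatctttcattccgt
Cyp26a1: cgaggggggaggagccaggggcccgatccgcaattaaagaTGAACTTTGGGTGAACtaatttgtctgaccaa

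Library totals over genes ranged from 14833396 counts in mutant 2 to 23704638 in control 1. Mutant 1 stood apart, with 39.4% of its uniquely aligned reads outside genes, against 22.1% to 24.9% in the other 3 samples, and 1603 gene symbols at 0 counts against 5173 to 6053. Background in mutant 1 was estimated at 2.04 counts per kb of exon, the median over 3742 genes at 0 in the other 3 samples, which would amount to between 2 and 11 counts for each of the 9 genes. Lmnb1 itself had 477 counts in control 1 against 326 in mutant 1, and 395 in control 2 against 149 in mutant 2. Counts are per gene, so reads of the deleted exon could not be told apart from those of other exons. The values were lower in both mutants, with a log2 fold change of -0.72 (SE 0.31, n = 2 per genotype, edgeR adjusted p = 0.195). Markers of mature olfactory neurons, horizontal basal cells and sustentacular cells, the supporting cells of the epithelium, were detected in every sample. No gene of the leukocyte, stromal, endothelial and smooth muscle lists was at 0 in any sample either. In bulk samples such as these, fewer cells of a type and less RNA per cell cannot be told apart.

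Of the 9 genes, 8 exceeded 1 CPM (counts per 1000000 library counts, with library totals adjusted by TMM factors) in at least 2 samples and were tested. With edgeR, 1 of the 8 (Crabp2) was higher in mutant cells at an adjusted p under 0.05, none was lower and 7 did not pass. At an unadjusted p under 0.05, edgeR's quasi-likelihood test gave 4 of the 8, and 2742 of all 15438 genes tested. DESeq2 gave 3 of the 8, and 1990 of all genes tested. At an adjusted p under 0.05 by edgeR's likelihood-ratio test, mutant cells had 1.28% of all 15438 genes called higher and 4.3% called lower. The median log2 fold change was 0.34 over the 8 genes and -0.01 over all genes tested. It was positive for 6 of the 8 and for 7554 of all 15438 genes. Both mutants lay above both controls for 2 of the 8 (Crabp2 and Aldh1a3), where 12.6% of all tested genes did so, and below both controls for 1 (Cyp26b1), where 13.3% did so. An exact permutation test of 2 samples against 2 cannot give a p below 0.333, so single genes were judged only by the model across all genes.

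**Figure D1:**
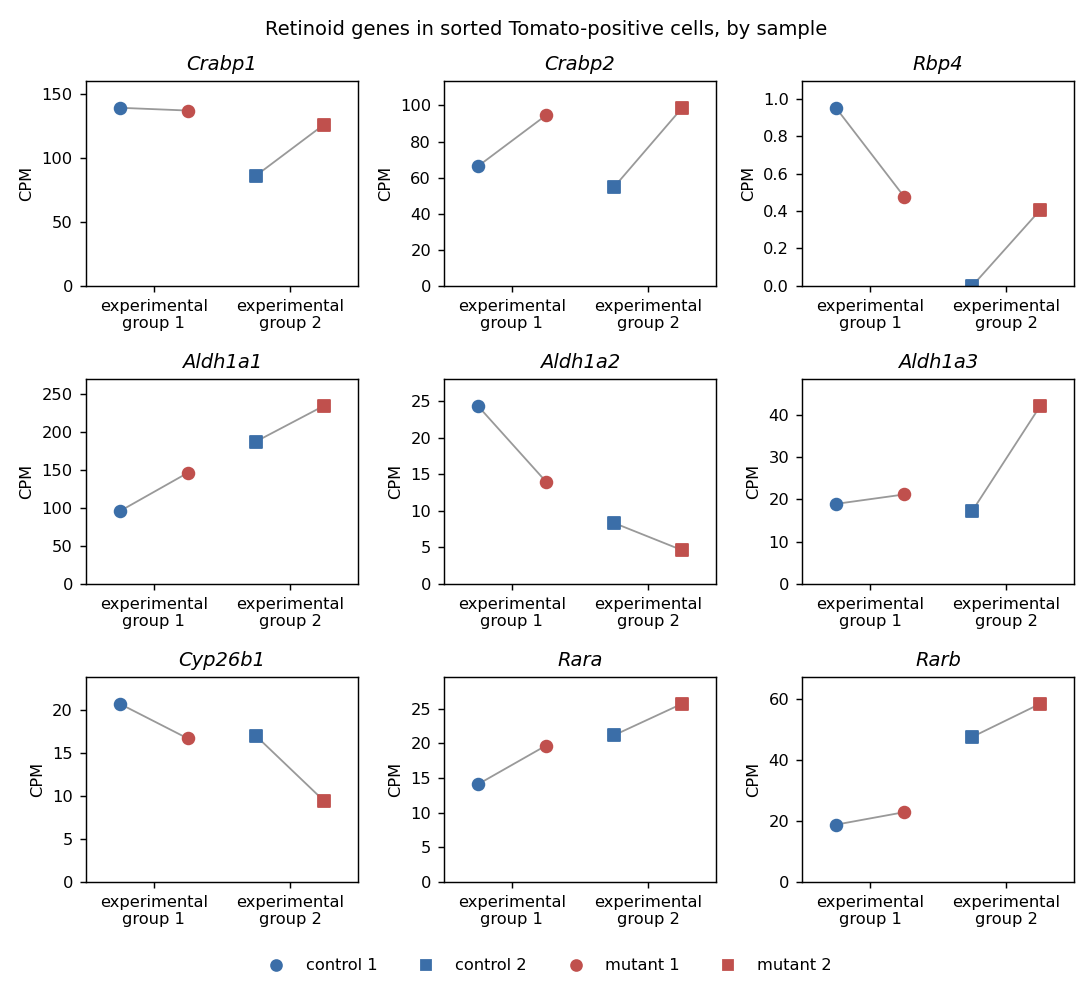
CPM of each of the 9 genes by sample, with control (blue) and mutant (red) of the same experimental group joined by a line and a separate axis from 0 for each gene. The lines of Crabp2 rise in both groups, from 66.3 to 94.5 CPM and from 54.8 to 98.7 CPM, whereas Rarb and Aldh1a2 differ more between the groups than between the genotypes.

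Levels of the 9 genes spanned a wide range per kb of exon. Mean CPM per kb over the 4 samples was 152 for Crabp1, 84.4 for Crabp2 and 69.2 for Aldh1a1, which formed the upper end. Rarb followed at 10.9 CPM per kb, then Aldh1a2 at 5.67, Aldh1a3 at 5.61, Rara at 4.71, Cyp26b1 at 2.98 and Rbp4 at 0.372. Crabp1 was the highest of the 9 in every sample, and Rbp4 was the lowest. The sample values of Crabp2 and Aldh1a1 overlapped, as did those of Rarb, Aldh1a2, Aldh1a3, Rara and Cyp26b1 with their neighbours in this order. With the longest transcript as length instead of all exons, Aldh1a3 at 7.22 and Rara at 5.96 CPM per kb moved above Aldh1a2.

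**Figure D2:**
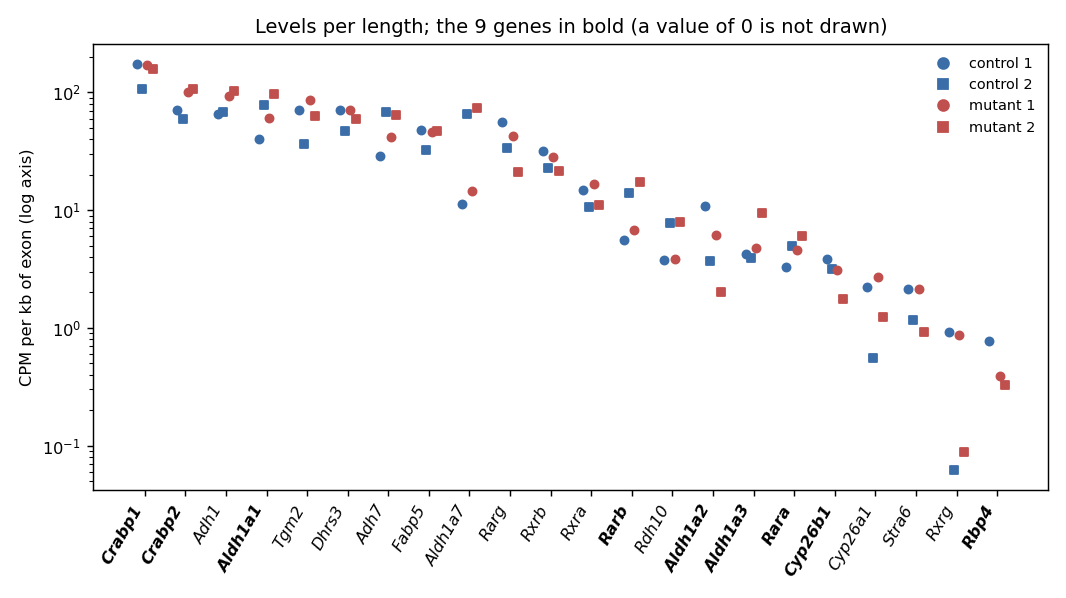
CPM per kb of exon on a log axis for the 9 genes (bold) and 13 other pathway genes, ordered by their mean, with 1 point per sample. Crabp1, Crabp2 and Aldh1a1 lie at means of 152, 84.4 and 69.2 CPM per kb, and Rbp4 at 0.372, with its value of 0 in control 2 not drawn.

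Crabp2, whose protein carries retinoic acid to its nuclear receptors, was the 1 gene of the 9 that passed as higher in mutant cells by edgeR. The gene has 4 exons at chr3:87948666-87953376 (plus strand, GRCm38). It had 1533 counts in control 1 against 2180 in mutant 1, and 1151 in control 2 against 1457 in mutant 2, or 66.3, 94.5, 54.8 and 98.7 CPM in the same order. Both mutants lay above both controls, and the mutants differed less from each other than from either control. Within experimental group 1 the mutant was 1.43-fold higher than its control, and within group 2 it was 1.80-fold higher. The fitted change was 1.6-fold (95% Wald interval 1.28 to 2.01), a log2 fold change of 0.68 (SE 0.17, n = 2 per genotype, edgeR adjusted p = 0.00253). The same change had an adjusted p of 0.0316 with edgeR's quasi-likelihood test and 0.0139 with DESeq2. The experimental group effect on Crabp2 was small, at -0.10 on the log2 scale (edgeR adjusted p = 0.684, SE 0.17). Without the replicate block, the experimental group term that pairs the mice, the log2 fold change was 0.67 but the edgeR adjusted p was 1. Leaving out a library also required fits without that term, and the log2 fold change was then 0.83 without control 1, 0.59 without control 2, 0.70 without mutant 1 and 0.68 without mutant 2, with edgeR adjusted p from 0.942 to 1.

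Crabp1, the close relative of Crabp2 that is linked to the binding and turnover of retinoic acid in the cytoplasm, did not pass the test. Crabp1, also with 4 exons (chr9:54764748-54773110, plus strand), had 139 CPM in control 1 against 137 in mutant 1, and 86.1 in control 2 against 126 in mutant 2, from 3219, 3158, 1808 and 1860 counts. The groups overlapped, with control 2 the single low sample. The log2 ratio of mutant to control within experimental group 1 was -0.02, that within group 2 was 0.55, and the fitted log2 fold change was 0.26 (SE 0.20, 95% Wald interval -0.13 to 0.65, edgeR adjusted p = 0.609). A change as large as that fitted for Crabp2 lies outside this interval at its upper end, although the difference between the genes was not tested.

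As a share of the summed Crabp1 and Crabp2 counts, Crabp2 made up 32.3% in control 1 (95% Wilson interval 30.95% to 33.6%), 38.9% in control 2 (37.2% to 40.7%), 40.8% in mutant 1 (39.5% to 42.2%) and 43.9% in mutant 2 (42.2% to 45.6%). These intervals cover counting error only. The share was higher in the mutant than in the control of the same experimental group in both groups, and the intervals of control 2 and mutant 1 overlapped. Crabp1 remained the more abundant of the pair per kb in every sample.

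Rbp4, the gene of the retinol carrier of blood, was at the edge of detection and was not tested. The gene has 6 exons at chr19:38116629-38125281 on the minus strand. It had 22 counts in control 1 against 11 in mutant 1, and 0 in control 2 against 6 in mutant 2, or 0.951, 0.477, 0 and 0.407 CPM. The highest and the lowest value were both in controls. In control 2, a count of 0 allows a level of up to 0.143 CPM (3 counts). In mutant 1, 3 of the 11 counts would be expected from the background estimated per kb of exon.

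The ALDH1A genes, which encode the enzymes of the last step of retinoic acid synthesis, had fitted genotype changes of either sign, and none passed. Aldh1a1 (16 exons, chr19:20492715-20643465, plus strand) was by far the most abundant of them, with 95.4 CPM in control 1 against 146 in mutant 1, and 187 in control 2 against 234 in mutant 2, from 2208, 3366, 3928 and 3455 counts. Each mutant lay above the control of its own experimental group, by 1.53-fold and 1.25-fold, but control 2 lay above mutant 1, so the genotypes overlapped. The genotype log2 fold change was 0.47 (SE 0.20, 95% Wald interval 0.08 to 0.86, edgeR adjusted p = 0.180). DESeq2 gave 0.48 with an adjusted p of 0.0483. A larger difference lay between the experimental groups, at 0.83 on the log2 scale (edgeR adjusted p = 0.000324, SE 0.20), a 1.77-fold higher level in group 2. Of the 50-base stretches of its transcript, 6.54% occur also in Aldh1a7, so some reads of these paralogs could not be assigned to one of them.

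Aldh1a2 (14 exons, chr9:71215789-71296243, plus strand), the main retinoic acid-producing enzyme of the embryo, had a fitted change of the opposite sign. It had 24.4 CPM in control 1 against 14.0 in mutant 1, and 8.34 in control 2 against 4.61 in mutant 2, from 564, 323, 175 and 68 counts. Both samples of experimental group 1 lay above both samples of group 2, and within each group the mutant was the lower sample. The mutant-to-control log2 ratios were -0.80 and -0.84, and the genotype log2 fold change of -0.82 did not pass (SE 0.35, 95% Wald interval -1.51 to -0.14, edgeR adjusted p = 0.174). DESeq2 gave no adjusted p for Aldh1a2. The group effect of -1.57 passed (edgeR adjusted p = 8.8e-05, SE 0.35).

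Aldh1a3 (13 exons, chr7:66390890-66427517, minus strand), another enzyme of this step, had 18.9 CPM in control 1 against 21.2 in mutant 1, and 17.2 in control 2 against 42.2 in mutant 2, from 438, 488, 362 and 622 counts. Both mutants lay above both controls, but mutant 1 by little and mutant 2 by 2.44-fold over its own control. The log2 fold change of 0.72 did not pass (SE 0.30, 95% Wald interval 0.14 to 1.31, edgeR adjusted p = 0.168), nor did the group effect of 0.43 (edgeR adjusted p = 0.284, SE 0.30).

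Shares of the summed ALDH1A counts differed widely between samples. Aldh1a1 made up 68.8% in control 1 against 80.6% in mutant 1, and 88.0% in control 2 against 83.4% in mutant 2. Aldh1a2 made up 17.6%, 7.73%, 3.92% and 1.64% in the same order, and was the second of the 3 genes by counts in control 1 alone. Aldh1a3 made up 13.6%, 11.7%, 8.11% and 15.0%.

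Cyp26b1 (6 exons, chr6:84571414-84593908, minus strand), which encodes a retinoic acid-degrading enzyme, had 20.7 CPM in control 1 against 16.7 in mutant 1, and 17.0 in control 2 against 9.42 in mutant 2, from 480, 385, 357 and 139 counts. Both mutants lay below both controls, although control 2 and mutant 1 were nearly equal and mutant 2 was the low sample. The log2 fold change of -0.58 did not pass (SE 0.32, 95% Wald interval -1.2 to 0.05, edgeR adjusted p = 0.380). The interval includes both no change and a fall by 1.2 on the log2 scale.

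The receptor genes Rara and Rarb showed no genotype difference that passed the test. Rara (10 exons, chr11:98927818-98974942, plus strand), which encodes retinoic acid receptor alpha, had 14.1 CPM in control 1 against 19.7 in mutant 1, and 21.2 in control 2 against 25.8 in mutant 2, from 326, 454, 445 and 380 counts. Mutants were the higher sample in each experimental group, and the genotypes overlapped, with a log2 fold change of 0.38 (SE 0.28, 95% Wald interval -0.16 to 0.92, edgeR adjusted p = 0.572).

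Rarb (8 exons, chr14:16430839-16819156, minus strand), which encodes retinoic acid receptor beta and carries the response element shown above, had 18.8 CPM in control 1 against 22.9 in mutant 1, and 47.6 in control 2 against 58.6 in mutant 2, from 435, 528, 1000 and 864 counts. Both samples of experimental group 2 lay well above both samples of group 1, and the mutants exceeded their controls by 1.22-fold and 1.23-fold. The group effect was 1.35 on the log2 scale (edgeR adjusted p = 4.15e-10, SE 0.19), a 2.54-fold higher level in group 2, against a genotype effect of 0.29 (SE 0.19, 95% Wald interval -0.09 to 0.67, edgeR adjusted p = 0.519).

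The counts of Rarb carry an uncertainty from a neighbour. In the GENCODE annotation, Top2b, the gene of a DNA topoisomerase, lies at chr14:16365179-16435462 on the opposite strand and reaches over the last exons of Rarb, so that 54.1% of the 50-base stretches of the Rarb transcript lie also in a Top2b transcript. In RefSeq, Top2b ends at position 16430787, before the end of Rarb at 16430839, and the genes do not overlap. Top2b had 203 CPM in control 1 against 208 in mutant 1, and 414 in control 2 against 343 in mutant 2, and thus was also higher in both samples of experimental group 2 (log2 0.87, SE 0.23, edgeR adjusted p = 0.00111). Rarb had 9.24 counts per 100 Top2b counts in control 1 against 11 in mutant 1, and 11.5 in control 2 against 17.1 in mutant 2. The annotation and strand setting used for counting are not given in the sources used here, and the part of Top2b in the Rarb values was not tested.

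**Figure D3:**
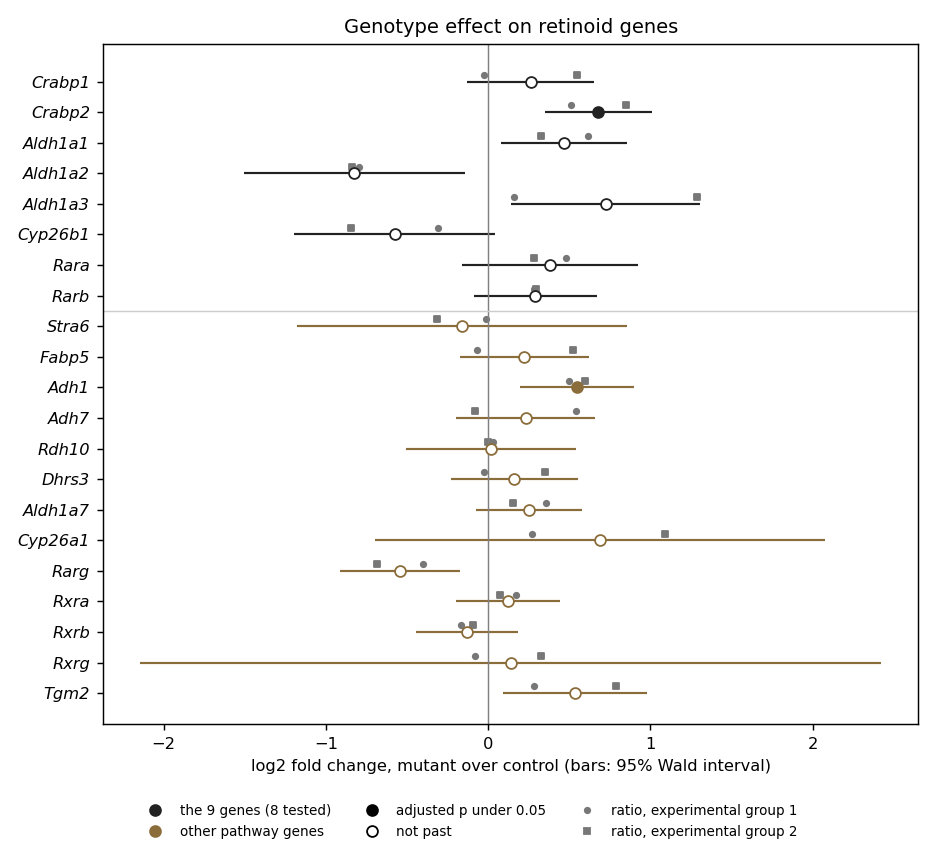
Genotype log2 fold changes (mutant over control) with 95% Wald intervals for the 8 tested genes of the 9 and, under the line, 13 other pathway genes, with filled circles for an edgeR adjusted p under 0.05 and small grey marks for the ratio within each experimental group. Crabp2 at 0.68 and Adh1 at 0.55 are the filled ones, and the grey marks of Crabp1 lie on both sides of 0.

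Differences between the experimental groups were as large for these genes as those between genotypes. Aldh1a1 and Rarb were higher and Aldh1a2 was lower in group 2, which makes 3 of 8 past the threshold, where 31.6% of all tested genes passed in either direction. The median absolute log2 difference over the 8 genes was 0.52 between genotypes and 0.52 between groups, against 0.26 and 0.50 over all tested genes. The groups differed in parents, age, sex and treatment group. Sample preparation and sequencing were shared within a group, per the study's methods. Alignments that were not unique made up 68.3% of all counts, tally lines included, in control 1 and 62.7% in mutant 1. They made up 26.3% in control 2 and 25.9% in mutant 2. These differences between the groups cannot be told apart.

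**Figure D4:**
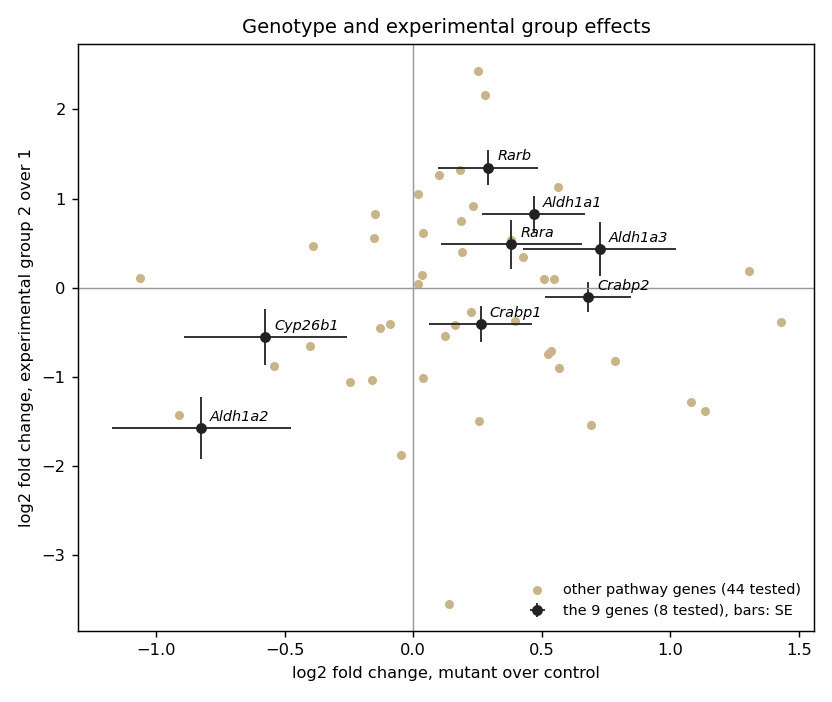
Genotype log2 fold change against experimental group log2 fold change for the 8 tested genes (black, with SE bars) and the 44 tested other pathway genes (tan). Crabp2 lies at 0.68 and -0.10, Rarb at 0.29 and 1.35, and Aldh1a2 at -0.82 and -1.57.

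Of 62 other genes of the pathway, 44 were tested, of which 1 was higher and none was lower in mutant cells by edgeR, with a median log2 fold change of 0.18, where 1.28% of all tested genes were higher and 4.3% lower. At the steps before the ALDH1A enzymes, Adh1, an alcohol dehydrogenase that oxidises retinol, was the gene that rose. It had 98.4 CPM in control 1 against 139 in mutant 1, and 102 in control 2 against 154 in mutant 2, and both mutants lay above both controls. Its log2 fold change was 0.55 (edgeR adjusted p = 0.0455, SE 0.18), with an adjusted p of 0.0556 by the quasi-likelihood test and 1 without the replicate block. Without control 1, control 2, mutant 1 or mutant 2 its log2 fold change was 0.53, 0.62, 0.61 and 0.51, with edgeR adjusted p from 0.954 to 1. The retinol dehydrogenase gene Rdh10 (log2 0.02, edgeR adjusted p = 0.992), the retinal reductase gene Dhrs3 (0.16, 0.799) and the alcohol dehydrogenase gene Adh7 (0.23, 0.706) did not pass.

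Among genes for uptake, binding and storage, Fabp5, an alternative carrier of retinoic acid, and Stra6, the receptor for RBP4, were fitted at 0.22 and -0.16 on the log2 scale, neither past the threshold (edgeR adjusted p = 0.685 and 0.949). Lrat, which makes retinyl esters for storage, was not tested, with 9, 24, 14 and 2 counts in control 1, mutant 1, control 2 and mutant 2.

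Among the oxidation enzymes, Aldh1a7, the paralog of Aldh1a1, had 23.5 CPM in control 1 against 30.1 in mutant 1, and 136 in control 2 against 152 in mutant 2. Both samples of experimental group 2 lay far above those of group 1, a difference of 2.43 on the log2 scale (SE 0.17), and Aldh1a7 had a genotype log2 fold change of 0.25 (edgeR adjusted p = 0.520). The CYP26 genes other than Cyp26b1 were low. Cyp26a1 had 92, 111, 21 and 33 counts in control 1, mutant 1, control 2 and mutant 2 (log2 0.69, edgeR adjusted p = 0.743), and Cyp26c1 had 9 counts in mutant 1 and 0 in the other 3 samples.

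Among receptors, Rarg, the gene of retinoic acid receptor gamma, was the most abundant RAR gene at a mean of 38.6 CPM per kb. It had 192 CPM in control 1 against 145 in mutant 1, and 115 in control 2 against 71.4 in mutant 2, lower in the mutant of each experimental group. The log2 fold change of -0.54 lay just outside the threshold (edgeR adjusted p = 0.0685, SE 0.19), and DESeq2 gave an adjusted p of 0.0377. Fits that left out a library gave -0.07 without control 1, -0.78 without control 2, -1.11 without mutant 1 and -0.04 without mutant 2. The partner receptor genes Rxra, Rxrb and Rxrg were fitted at 0.12, -0.13 and 0.14 on the log2 scale (edgeR adjusted p = 0.821, 0.796 and 0.985), with Rxrg at 49, 46, 3 and 3 counts. Tgm2, a transglutaminase gene induced by retinoic acid in many cells, had 255 CPM in control 1 against 311 in mutant 1, and 131 in control 2 against 227 in mutant 2 (log2 0.54, SE 0.23, edgeR adjusted p = 0.179), and DESeq2 gave 0.0182.

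Cell type markers moved along with several of these values. All 8 of 8 mature neuron markers fell in mutant cells (median log2 fold change -1.35), and their summed level was 16326 CPM in control 1 against 8995 in mutant 1, and 7027 in control 2 against 2000 in mutant 2. Aldh1a2 ranked the samples in the same order as this sum. Per 1000 CPM of mature neuron markers it stood at 1.49, 1.56, 1.19 and 2.31 CPM, a 1.94-fold range against 5.29-fold for its own CPM. Ciliated cell markers ranked the samples in this order too, at 392, 272, 230 and 102 CPM, with 3 of 3 lower in mutant cells. Aldh1a2 per 1000 CPM of these was 62.2, 51.5, 36.2 and 45.3 CPM, a narrower range of 1.72-fold. Stromal fibroblast markers, of which 2 of 6 fell, summed to 962, 624, 294 and 491 CPM, with Dcn at 165, 194, 190 and 413 CPM unlike the rest. Without Dcn, left out after its values were seen, the sum was 797, 430, 104 and 78.9 CPM, and Aldh1a2 per 1000 CPM of it was 30.6, 32.6, 80.2 and 58.4 CPM. Cells were sorted for Tomato, and the stromal markers were nevertheless detected in every sample. The part of these cell types in the Aldh1a2 values was not tested.

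Sustentacular cell markers, of which 0 of 5 passed for genotype, summed to 6584 CPM in control 1 against 8565 in mutant 1, and 13351 in control 2 against 17417 in mutant 2. Aldh1a1, Rara and Rarb ranked the samples in the same order as this sum. Among its markers, Cyp2g1, Ermn and Cyp2a5 shared this order. Cbr2 (3474, 4843, 4287 and 6189 CPM) and Hes1 (58.7, 71.9, 68.0 and 79.2 CPM) did not, being higher in mutant 1 than in control 2. Aldh1a1 per 1000 CPM of sustentacular markers was 14.5, 17.0, 14.0 and 13.4 CPM, a 1.27-fold range against 2.45-fold for its own CPM. Rarb per 1000 CPM of the same markers was 2.86, 2.67, 3.57 and 3.36 CPM. The part of these cells in the Aldh1a1, Rara and Rarb values was not tested.

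Horizontal basal cell markers, of which 1 of 5 rose, summed to 1910 CPM in control 1 against 2687 in mutant 1, and 1269 in control 2 against 1683 in mutant 2. Crabp2 per 1000 CPM of these markers was 34.7 in control 1 against 35.2 in mutant 1, and 43.2 in control 2 against 58.7 in mutant 2. Relative to this sum, the mutant thus exceeded its control in both experimental groups but by little in group 1. The range was 1.69-fold against 1.80-fold for the CPM of Crabp2, which ranked the samples in a different order from these markers. Krt5 and Krt14, at 1042 and 585 CPM in control 1, dominated the sum. In group 1 the mutant-to-control log2 ratio was 0.51 for Crabp2. It was higher for Krt15 (1.36) and Trp63 (0.62), and lower for Krt5 (0.44), Krt14 (0.48) and Icam1 (0.13). In group 2 it was 0.85 for Crabp2, 0.84 for Krt15 and 0.44 for Trp63, and lower still for Krt5, Krt14 and Icam1. Globose basal cell and neuronal precursor markers, of which 1 of 5 rose, summed to 43.1, 73.7, 81.4 and 112 CPM, in the same order of samples as Aldh1a1, Rara and Rarb. Per 1000 CPM of this sum, Aldh1a1 stood at 2212, 1981, 2298 and 2090 CPM, a 1.16-fold range. Aldh1a1 and Rara thus varied less relative to this list than relative to the sustentacular list, whereas Rarb varied more. The part of basal cells in the Crabp2, Aldh1a1, Rara and Rarb values was not tested.

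**Figure D5:**
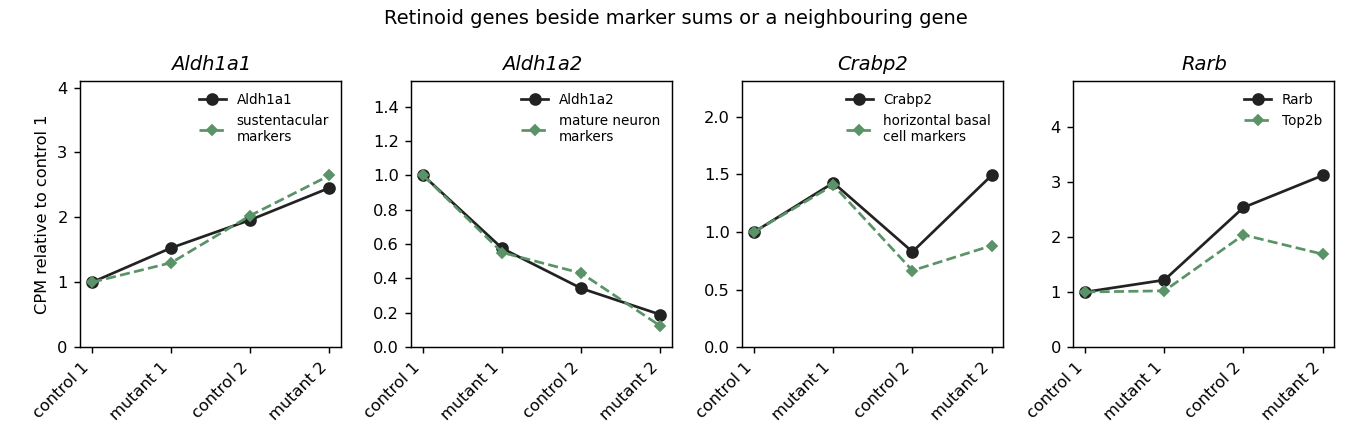
CPM relative to control 1 of Aldh1a1, Aldh1a2, Crabp2 and Rarb (black) beside the summed CPM of a marker list or, for Rarb, the CPM of Top2b (green, dashed), with a linear axis from 0. Aldh1a1 and the sustentacular markers are both lowest in control 1 and highest in mutant 2, Aldh1a2 and the mature neuron markers are both highest in control 1 and lowest in mutant 2, and in mutant 2 Crabp2 stands above the horizontal basal cell markers.

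For each tested gene of the 9 whose level spanned at least 1 on the log2 scale, the tested genes with the most similar centred profile over the 4 samples were listed, with the root mean square difference in log2 CPM as the measure. Rarb was closest to Gnai3 (0.01), Dek (0.02) and Trp53inp1 (0.04), and Aldh1a1 to Mtf2 (0.02), Plod2 (0.03) and Ttc39a (0.03). Aldh1a2 was closest to 1700007L15Rik (0.04), Slc25a33 (0.04) and Rd3 (0.06), and Cyp26b1 to Mageh1 (0.04), Syngr3 (0.04) and Oxnad1 (0.04). Aldh1a3 was closest to Cit (0.06), Epb4.1l4a (0.06) and Gm9994 (0.09). With 4 samples such profiles are not rare, and within a difference of 0.1 there were 123 genes for Aldh1a1, 78 for Rarb, 82 for Cyp26b1, 15 for Aldh1a2 and 3 for Aldh1a3.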

How the data were processed

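The authors deposited raw read counts per gene symbol for each of the 4 samples. Single-end reads from rRNA-depleted RNA were cleared of ribosomal sequence with Bowtie2, aligned to mm10 with TopHat and counted with HTSeq in intersection-nonempty mode. The submitters' processing notes name Bowtie2 2.0.6, TopHat2 2.0.7 and HTSeq. Reads with several alignments are set aside by HTSeq, which lowers counts of near-identical genes. The 5 tally lines per file, 43.1% to 77.7% of all counts, were left out.

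The likelihood-ratio test of edgeR 4.0.16 (R 4.3.3) was run on genes above 1 CPM in 2 or more samples, with TMM factors and terms for genotype and experimental group. Test, filter and terms are those of the study, whose code however left the tally lines in the tables. The alternative with these lines kept follows it and gave 625 lower and 185 higher of 13557 genes, with Crabp2 the 1 gene of the 9 past the threshold. Benjamini-Hochberg adjustment was made over all 15438 genes, with a threshold of 0.05. Same-numbered mice were littermates per the study's methods and their deviations from the genotype means correlated (r = 0.522), so the experimental group entered as replicate block. Counts of every sample pair differed beyond sampling noise (chi-square per degree of freedom at least 47.0). Wald SEs and intervals come from the model. Ratios within a group used log2 CPM (prior count 2) and carry no test. A count of 3 was taken as detected, which is 0.130 to 0.203 CPM. Lengths and coordinates are from the GENCODE annotation of GRCm38, in which 97.8% of symbols matched.

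The 9 genes, the pathway list and the marker lists were chosen with earlier results of these data known. Outside the 9, a fixed panel of 16 pathway genes and any pathway gene past the threshold were named, except that some items are not reported here. Alternatives were the quasi-likelihood test, DESeq2 1.42.0, no replicate block, RLE factors, other filters, thinning to the smallest library, background subtraction in mutant 1, keeping the tally lines and leaving out replicates. The scripts were tested on simulated data.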

Additional observations from a re-analysis of the deposited data

Results flagged for a closer look

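Crabp1 had mutant-to-control log2 ratios of opposite sign in the experimental groups, -0.0227 in group 1, which is near 0, and 0.549 in group 2. Each ratio rests on 1 mutant and 1 control, and the difference between the groups was not tested.

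In mutant 1, 39.4% of uniquely aligned reads fell outside genes, more than in either control (23.8% and 24.9%) or in mutant 2 (22.1%). The background per kb of exon, estimated from genes at 0 in the other samples, was subtracted from mutant 1. Crabp2 then had a log2 fold change of 0.70 (edgeR adjusted p = 0.00156). Of the 8 tested retinoid genes, 1 was higher and 0 were lower in mutant cells, as without the subtraction.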

How the results depend on the processing

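Across the alternatives, genotype values of the 8 tested retinoid genes kept their direction and, where tested, their side of the threshold in 109 cases. They lost the threshold in 5, passed it newly in 1 and turned sign in 5. Aldh1a2 under DESeq2 and the ratios of 1 experimental group alone had no adjusted p, so these cases counted by direction alone. With the replicate block kept, Crabp2 stayed between 0.68 and 0.71 on the log2 scale, with edgeR or DESeq2 adjusted p from 0.00156 to 0.0316, and Aldh1a1 alone joined it, under DESeq2, which made 2 retinoid genes higher. Without the replicate block none of the retinoid genes and none of the other pathway genes passed (0 and 0 higher), and over all genes 6 were higher and 0 lower, against 197 and 664. The quasi-likelihood test gave 117 higher genes over all and 0 higher pathway genes. DESeq2, RLE factors, CPM above 1 in all 4 samples, thinning, background subtraction and kept tally lines each gave 2 higher pathway genes. DESeq2, no filter, CPM above 1 in all 4 samples and thinning gave 1 lower (Rarg). CPM above 1 in all 4 samples gave 2 retinoid genes lower in experimental group 2. Leaving out a library, always without the block, gave 0 to 5 lower and 3 to 33 higher genes over all (33 without control 1, 27 without control 2, 3 without mutant 1 and 19 without mutant 2), and 0 higher retinoid and 0 higher pathway genes. The cause of these differences was not tested, except that leave-out fits hold fewer samples. Experimental group effects were not refitted without single libraries or without the block.

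Signs turned in some fits that left out 1 library or 1 experimental group. Crabp1 ranged from -0.0391 (without control 2) to 0.62 there, with -0.02272 in experimental group 1 alone and 0.5492 in group 2 alone, Aldh1a2 from -1.84 to 0.18 (0.18 without control 1) and Rarb from -0.51 to 1.16 (-0.22 without control 1 and -0.51 without mutant 2). Without a turn of sign, Aldh1a1 ranged from 0.03 (without control 1) to 1.03 (without control 2), Aldh1a3 from 0.16 (group 1 alone) to 1.28 (group 2 alone), Cyp26b1 from -1.01 (without mutant 1) to -0.14 (without mutant 2), Rara from 0.11 (without control 1) to 0.73 (without control 2) and Tgm2 from 0.12 (without control 2) to 1.04 (without control 1). Among the panel, the ranges were -0.84 to 0.41 for Stra6 (0.3997 without mutant 2), -0.57 to 0.68 for Rdh10 (-0.4216 without control 1), -0.09278 to 0.48 for Dhrs3 (-0.02494 and 0.3505 in groups 1 and 2 alone), -0.34 to 0.92 for Adh7 (-0.17 without mutant 2, 0.5428 and -0.07969 in groups 1 and 2 alone), -1.39 to 1.99 for Aldh1a7 (-0.5833 without control 1), -0.17 to 1.83 for Cyp26a1 (-0.124 without control 2), -0.06872 to 0.52 for Fabp5 (-0.01319 without control 2), -0.21 to 0.43 for Rxra (-0.05227 without control 2), -0.36 to 0.14 for Rxrb (0.08937 without mutant 2) and -0.88 to 0.86 for Rxrg (-0.08237 and 0.3233 in groups 1 and 2 alone). Rxrg also turned to -0.0301 without the replicate block and to -0.22 with thinned counts. Depth limits Rbp4, Rxrg and the genes not tested, and 2 samples per genotype limit every comparison.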

Other observations

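Receptor and cofactor genes of the retinoid pathway differed between the experimental groups, a pattern singled out after the values were seen. Of the 11 tested, 4 were lower and 5 were higher in experimental group 2, where 31.6% of all tested genes passed in either direction, and 0 passed for genotype. Among the receptor genes, Rarg had a group effect of -0.88 on the log2 scale (edgeR adjusted p = 3.96e-05, SE 0.19), Rxra of -0.54 (edgeR adjusted p = 0.00466, SE 0.16), Rxrb of -0.45 (edgeR adjusted p = 0.0199, SE 0.16) and Rxrg, at few counts, of -3.55 (edgeR adjusted p = 0.0159, SE 1.2). Among the higher ones were the corepressor genes Ncor1 (0.83) and Nrip1 (1.32) and the coactivator genes Ncoa2 (0.62) and Ncoa3 (0.56). Nrip1, which is induced by retinoic acid in several cell types, had 20.2 CPM in control 1 against 23.8 in mutant 1, and 52.3 in control 2 against 57.3 in mutant 2 (edgeR adjusted p = 7.17e-10, SE 0.19), which is the order of samples that Rarb had.

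Beyond Adh1, other pathway genes whose genotypes did not overlap were Sdr16c5, Retsat and Meis1, with higher levels in both mutants, and Rdh5, with lower ones, also named after the values were seen. These are 4 higher and 1 lower of the 44 tested, Adh1 included, where 12.6% and 13.3% of all tested genes did not overlap in these directions. Sdr16c5, a retinol dehydrogenase gene, had 3.50 and 3.19 CPM in the controls and 6.98 and 9.83 CPM in the mutants (log2 1.31, SE 0.53, edgeR adjusted p = 0.155). Retsat, which saturates retinol, had 23.4 and 16.1 CPM in the controls and 27.6 and 23.8 CPM in the mutants, and Rdh5, another retinol dehydrogenase gene, had 3.41 and 3.62 CPM in the controls and 1.6 and 1.76 CPM in the mutants (edgeR adjusted p = 0.501 and 0.551). Meis1, a homeobox gene known as a retinoic acid target, had 41.0 and 47.2 CPM in the controls and 50.1 and 69.7 CPM in the mutants (log2 0.43, SE 0.18, edgeR adjusted p = 0.161). Of the 10 known targets in the pathway list, 6 were tested, 5 of them had a positive log2 fold change and 0 passed for genotype. Rarres2, at few counts, was the negative one (log2 -0.91, SE 0.83, edgeR adjusted p = 0.688). Rai14, named for its induction by retinoic acid, overlapped between genotypes. It had 22.2 CPM in control 1 against 29.9 in mutant 1, and 44.4 in control 2 against 71.8 in mutant 2. Its genotype log2 fold change was 0.56 (edgeR adjusted p = 0.0512, SE 0.19), and its group effect was larger, at 1.13 (edgeR adjusted p = 7.56e-08, SE 0.19). For genotype it passed with RLE factors, with CPM above 1 in all 4 samples and with the tally lines kept (edgeR adjusted p = 0.0464, 0.0446 and 0.0485). It did not pass with the quasi-likelihood test, DESeq2 or no filter on low counts.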
